A study of Mus musculus with 24 samples.

Results

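Chromatin accessibility was described at the genes of 9 transcription factors that direct the enteroendocrine lineage, the hormone-secreting cells of the intestinal epithelium: Isl1, Prox1, Neurog3, Neurod1, Pax4, Pax6, Nkx2-2, Insm1 and Rfx6. A peak was taken as belonging to a gene where the deposited annotation names that gene and places the peak within 50000 bp of its transcription start site (TSS). This gave 33 of the 150646 consensus peaks, with 9 further peaks of Neurod1 lying beyond that distance. ATAC-seq, in which the transposase Tn5 inserts sequencing adapters into open chromatin, was performed on small intestinal epithelium sorted as EpCam-positive and CD45-negative from C57BL/6JRj mice that were either young or aged. There were 3 libraries per age, numbered 1, 2 and 4 in both, and the 4 sequencing lanes of each were counted together. Neither group carried a treatment or a genetic change per the labels. The labels say young and aged; the series' design text gives 2 to 3 and 20 to 22 months, for the mice of its other assays. Whether the libraries are separate animals is not stated, so the spread behind the p-values may be technical.

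Enteroendocrine cells arise from secretory progenitors of the crypt once Notch signalling is low. Neurog3, a basic helix-loop-helix factor, starts the programme, Neurod1 and Insm1 act below it, and Pax4, Pax6, Nkx2-2, Rfx6, Isl1 and Prox1 take part in the choice and maintenance of hormone-producing subtypes. These cells are scarce in the epithelium, and several of the factors also act in the pancreas, in neurons or, for Prox1, in lymphatic endothelium. Each library here is a bulk sample of all sorted epithelial cells. Fewer cells with an open site and less opening per cell cannot be told apart.

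Total counts in peaks lay between 6149680 (young 4) and 23935291 (aged 2). Normalised counts (CPM) are counts scaled to the library total with TMM factors, and errors are standard deviations (SD, n = 3 per age). Of the 12 epithelial markers 10 had a peak within 1000 bp of the TSS (Krt19 and Vil1 had none), for example Epcam, with a mean of 51.2 CPM in aged against 54.1 in young, or Cdx2, with 55.3 against 57.2. The tests below are edgeR's quasi-likelihood test, with p adjusted over all features by Benjamini-Hochberg and called below 0.05. A log2 fold change below 0 means lower in aged. Of the 10 epithelial promoters 6 had a value below 0, the median was -0.055 and 0 were called. Cldn7 had the smallest p of them, at -0.26 (SE 0.09, edgeR adjusted p = 0.237). None of the 12 leukocyte markers and none of the 6 lymphatic endothelial markers had a peak within 1000 bp of the TSS. Of the 6 markers of other endothelium only Kdr had one, at 0.948 and 1.26 CPM. Within 50000 bp 5 leukocyte markers were tested and 0 called, with Cd8a at 1.73 (SE 0.46, edgeR adjusted p = 0.0567, and 0.0162 with the replicate block) and no overlap, at 1.35 CPM in aged against 0.488 in young libraries.

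Promoter sequences are shown for Isl1 and Prox1, whose accessibility changed with age, and for Neurod1 and its upstream factor Neurog3, which starts the programme. Each runs 5′ to 3′ on the gene's strand from 250 bases before to 50 bases after the RefSeq start on GRCm38.p6, and capitals mark bases inside a consensus peak of that gene. RefSeq windows were matched for 7 of the 9 genes, 9 windows in all, and 3 of them touch a peak of the gene.
Isl1 (chr13:116309639-116309938, minus strand): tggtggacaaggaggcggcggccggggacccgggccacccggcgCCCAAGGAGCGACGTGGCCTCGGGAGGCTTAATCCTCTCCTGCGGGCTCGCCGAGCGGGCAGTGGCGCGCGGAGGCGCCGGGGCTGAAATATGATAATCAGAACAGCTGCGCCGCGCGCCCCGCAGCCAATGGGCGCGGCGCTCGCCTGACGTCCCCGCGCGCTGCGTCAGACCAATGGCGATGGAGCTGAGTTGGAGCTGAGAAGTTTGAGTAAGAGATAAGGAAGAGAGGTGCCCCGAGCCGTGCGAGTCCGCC
Prox1 (chr1:190170778-190171077, minus strand): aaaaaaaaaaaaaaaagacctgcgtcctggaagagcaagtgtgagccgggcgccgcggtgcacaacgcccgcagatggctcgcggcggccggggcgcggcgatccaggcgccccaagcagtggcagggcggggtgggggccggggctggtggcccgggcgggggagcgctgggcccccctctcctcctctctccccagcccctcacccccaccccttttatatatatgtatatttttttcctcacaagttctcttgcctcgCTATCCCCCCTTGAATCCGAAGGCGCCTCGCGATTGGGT
Neurod1 (chr2:79456587-79456886, minus strand): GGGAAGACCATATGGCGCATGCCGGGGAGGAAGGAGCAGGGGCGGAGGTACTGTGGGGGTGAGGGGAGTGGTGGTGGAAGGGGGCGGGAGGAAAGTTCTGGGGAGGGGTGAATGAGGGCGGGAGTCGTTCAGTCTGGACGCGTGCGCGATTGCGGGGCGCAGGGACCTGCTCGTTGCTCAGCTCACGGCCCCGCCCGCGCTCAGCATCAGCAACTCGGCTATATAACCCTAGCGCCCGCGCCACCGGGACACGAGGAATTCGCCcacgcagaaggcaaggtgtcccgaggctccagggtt
Neurog3 (chr10:62132840-62133139, plus strand): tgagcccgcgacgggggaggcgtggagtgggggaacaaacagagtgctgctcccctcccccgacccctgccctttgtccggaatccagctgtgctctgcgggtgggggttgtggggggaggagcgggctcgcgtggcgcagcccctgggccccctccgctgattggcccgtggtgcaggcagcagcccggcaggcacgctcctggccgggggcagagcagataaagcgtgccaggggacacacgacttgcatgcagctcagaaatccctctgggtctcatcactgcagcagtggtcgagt

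The Isl1 window had 256 of its 300 bases inside the peak, the Neurod1 window 264, the Prox1 window 39 and the Neurog3 window 0. Windows and motif positions count from the RefSeq start, and peak distances from the TSS of the deposited annotation. These starts differ, for example, for Prox1 (190170827 against 190170680) and Neurod1 (79456636 against 79456751). G and C made up 69.0% of the Isl1 window, 64.3% of Prox1, 66.7% of Neurod1 and 68.3% of Neurog3, against a median of 52.7% over all 32851 RefSeq windows. The Isl1 window held 37 CpG dinucleotides and the other 3 held 25, 26 and 19 in the order shown, against a median of 7. Among 4 motifs searched on both strands, the E-box form CAGCTG occurred in the Isl1 window, 103 bases upstream of the start and inside the peak, and in the Neurog3 window, 165 bases upstream. It occurs in 16.3% of all windows. The E-box form CAGATG, present in 17.2% of all windows, occurred in the Prox1 window 179 bases upstream. TATAAA (13.6% of windows) matched the Prox1 window on the opposite strand 34 bases upstream. The homeodomain core TAATTA (5.29% of windows) was in none of these 4. A match is a string of letters and not evidence of binding.

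Accessibility fell with age at the promoters of Isl1 and Prox1 and was not called at any other of the 9 genes. Isl1 encodes a LIM-homeodomain factor. Its single peak (chr13:116309582-116309894, 313 bp, 53 bp upstream of the TSS, annotated as promoter) held 27, 49 and 28 counts in aged 1, 2 and 4, against 103, 95 and 26 in the young libraries of the same numbers. Normalised, the aged libraries stood at 1.66, 2.05 and 1.59 CPM and the young libraries at 4.71, 4.70 and 4.14 CPM. Every aged library was below every young one, and the nearest were aged 2 and the shallow young 4. The aged mean of 1.77 ± 0.246 CPM was 2.56-fold below the young mean of 4.52 ± 0.329 CPM. On the log2 scale the peak changed by -1.36 (SE 0.22, 95% interval -1.80 to -0.91), and the edgeR adjusted p over 129588 peaks was 0.000170. A peak of Gm38193, a transcript of unknown coding status, lay 443 bp upstream of the Isl1 TSS and had too few counts to be tested, at a mean of 0.238 CPM in aged and 0.789 in young libraries, which did not overlap. No other peak lay within 50000 bp of the Isl1 TSS.

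Prox1 encodes a prospero-related homeodomain factor found in enteroendocrine and tuft cells. Its promoter peak (chr1:190170437-190170816, 380 bp, 54 bp downstream of the TSS) stood at 3.20, 5.06 and 3.46 CPM in aged 1, 2 and 4. The young libraries stood at 7.55, 6.64 and 7.64 CPM, all above the aged ones, of which aged 2 came nearest. The young mean of 7.28 ± 0.557 CPM was 1.86-fold above the aged mean of 3.91 ± 1.002 CPM. On the log2 scale this was -0.86 (SE 0.19, 95% interval -1.24 to -0.48, edgeR adjusted p = 0.00709). This call depended on single libraries: adjusted p was 0.0621 without aged 1 and 0.0503 without aged 4, with log2 fold changes of -0.75 and -0.78.

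Other peaks around the Prox1 start had values below 0 and none of them was called. The peak 4194 bp upstream (chr1:190174734-190175015, annotated as intronic) stood at 0.986, 1.09 and 1.02 CPM in aged and 2.06, 1.83 and 2.71 in young. Its log2 fold change was -1.01 (SE 0.29, edgeR adjusted p = 0.0739, and 0.0157 with the replicate number as a block). The neighbouring peak 3800 bp upstream had -0.67 (SE 0.40), again with no overlap between the ages. The 2 upstream peaks summed gave -0.91 (SE 0.25), and the edgeR adjusted p over 23958 genes was 0.0659. Downstream, 3 peaks that the annotation gives to the antisense gene Gm28172 lay 1207, 1421 and 1776 bp from the Prox1 TSS and had -0.69, -0.89 and -0.75, with edgeR adjusted p between 0.397 and 0.634. The ages overlapped at the nearest of them (chr1:190169409-190169539), which spans a second RefSeq start of Prox1 at 190169515. Accessibility carries no strand, so that peak cannot be credited to Gm28172 over Prox1. The fourth Gm28172 peak, 45170 bp away in an intron, had -0.034. These neighbours were singled out after their values were seen.

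**Figure D1:**
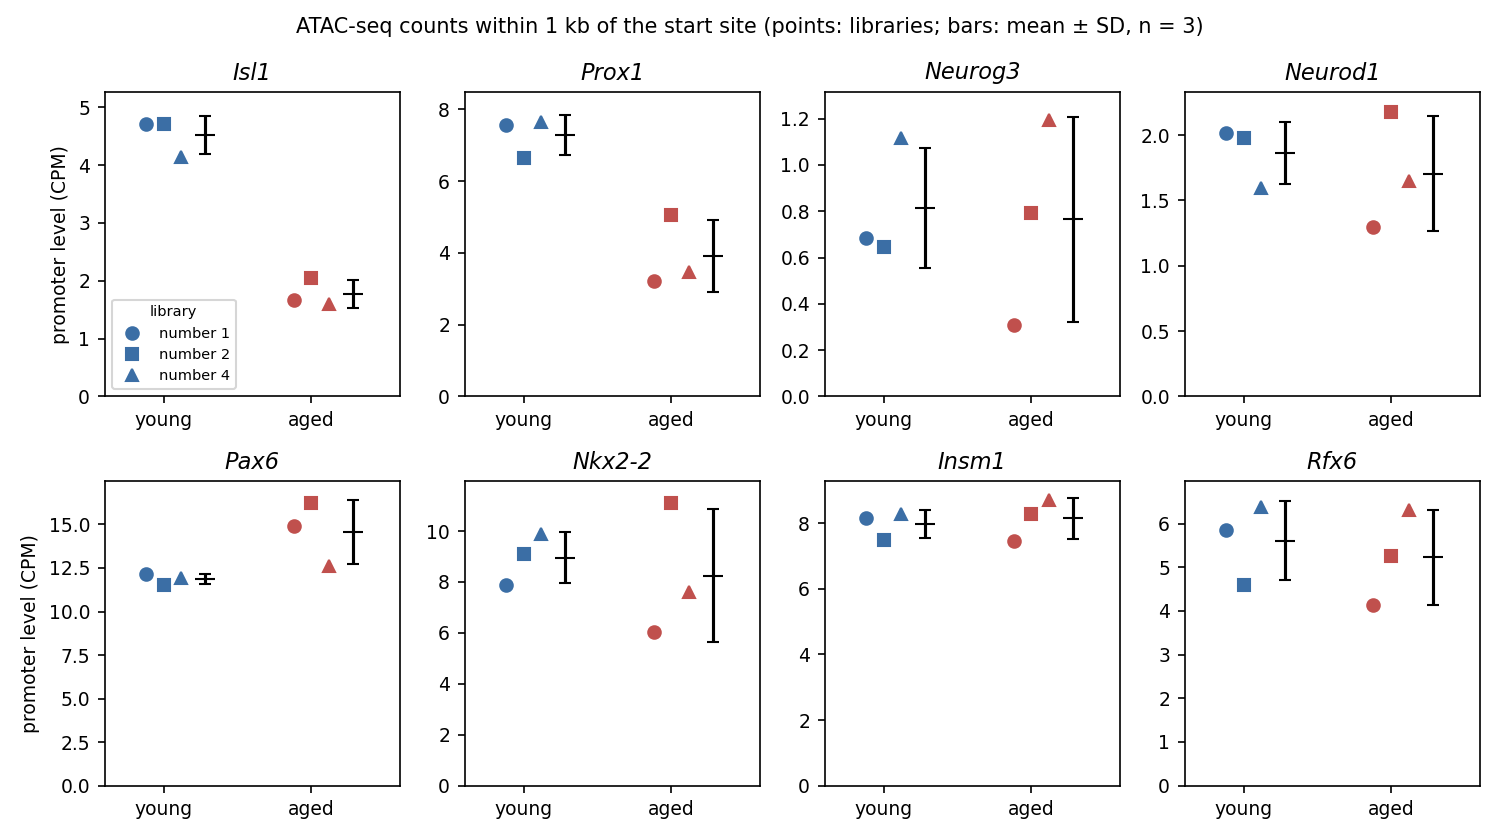
Promoter accessibility in CPM (y axis, from 0) of the 8 genes with a peak within 1000 bp of the TSS, by age (x axis); points are libraries, with the shape giving the library number, and bars are mean ± SD (n = 3). The aged values of Isl1 (1.59 to 2.05) and Prox1 (3.20 to 5.06) lie below all young values, and the ages overlap for Neurog3, Neurod1, Nkx2-2, Insm1 and Rfx6.

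At the level of whole promoters, with counts summed per gene over peaks within 1000 bp, 8 of the 9 genes had a value and Isl1 and Prox1 were the 2 called, both lower. Each of these 2 promoters is the single peak described above, with the same counts. Over all 13880 tested genes 1.74% were called, 0.973% lower and 0.771% higher. With the replicate block the same 2 were called, beside 3.34% of all genes, 1.81% of them as lower. The ages did not overlap at 2 of the 8 promoters with aged lower (Isl1 and Prox1) and at 1 with aged higher (Pax6). Over all promoters these shares were 5.79% and 4.96%, 10.7% in all. The log2 value was -1.34 for Isl1 (SE 0.23, edgeR adjusted p = 0.000687) and -0.84 for Prox1 (SE 0.20, edgeR adjusted p = 0.0180). Isl1 was called in all 15 alternative analyses in which it was tested, with adjusted p between 3.52e-06 and 0.0201. Prox1 was called in 11 of 15. Its adjusted p was 0.106 without aged 1, 0.0834 without aged 4, 0.0567 without young 1 and 0.0920 without young 2. The promoters whose log2 CPM ran most like Isl1 over the 6 libraries were Rbm46os, Hfm1 and Zfp37 (Pearson r 0.998, 0.994 and 0.994), and those most like Prox1 were Trim9, 1500004A13Rik and Dapk1 (0.997, 0.992 and 0.990). Of the 13879 other promoters 211 exceeded an r of 0.9 for Isl1 and 160 for Prox1. These correlations rest on 6 points that include the step between the ages, and they were not tested.

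Neurog3 and Neurod1 had weak promoters at both ages, though this was not particular to them. Per kb of peak over the 6 libraries they stood at percentiles 14.5 and 7.0 of tested promoters. Nkx2-2 stood at 17.5, Insm1 at 19.8, Rfx6 at 20 and Isl1 at 23.4. Neurog3, the initiating factor, had a narrow peak of 117 bp (chr10:62132474-62132590, 558 bp upstream of the TSS), with 5, 19 and 21 counts in the aged and 15, 13 and 7 in the young libraries. At 0.308, 0.794 and 1.19 CPM the aged libraries spanned the young values of 0.686, 0.644 and 1.11 CPM. The promoter's log2 fold change was 0.10 (SE 0.46, 95% interval -0.84 to 1.04), a wide interval that follows from the few counts. The peak with most of the counts credited to Neurog3 lay 22267 bp upstream (chr10:62110457-62111189, 733 bp), where the annotation places the promoter of 2010107G23Rik. It stood at 25.4 ± 1.12 CPM in aged and 24.99 ± 1.82 in young, out of 31.6 ± 1.12 and 31.5 ± 2.25 CPM summed over the 6 peaks of Neurog3. Of its distal peaks the one of smallest p was intergenic, 30853 bp upstream (chr10:62102113-62102361). It had 1.79, 1.71 and 2.16 CPM in the aged libraries against 2.65, 1.54 and 2.55 in the young ones, overlapping, with a log2 fold change of -0.22 (SE 0.27). The summed value (log2 fold change 0.0079, SE 0.094) is thus mostly that of another gene's promoter.

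Neurod1, a helix-loop-helix factor below Neurog3, had a promoter peak of 362 bp (chr2:79456623-79456984) at 1.29, 2.17 and 1.65 CPM in aged and 2.01, 1.98 and 1.59 in young. The promoter's log2 fold change was -0.12 (SE 0.29, 95% interval -0.71 to 0.48). An intergenic peak 42737 bp upstream, the farthest one inside the distance limit, had -0.53 (SE 0.33), with 0.996 ± 0.249 against 1.505 ± 0.388 CPM, and -0.33 without aged 2. The first peak beyond the limit, at 55184 bp, had 3.01 ± 0.148 and 2.66 ± 0.960 CPM.

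Insm1, a zinc-finger factor encoded by a single exon, had 3 peaks within 1000 bp and one 1617 bp downstream inside that exon. The central one (chr2:146221754-146222204, 58 bp downstream of the TSS) was at 4.62, 4.47 and 4.997 CPM in aged and 3.66, 3.76 and 3.82 in young. The aged libraries were all above the young ones, yet the log2 fold change of 0.33 (SE 0.19, edgeR adjusted p = 0.703) was not called. The flanking promoter peaks had -0.28 and -0.25, the exonic peak -0.18, and the promoter as a whole 0.065 (SE 0.16, 95% interval -0.25 to 0.38). An intergenic peak 4815 bp downstream had the lowest value of the gene, -0.78 (SE 0.46), at 0.460 ± 0.240 against 0.885 ± 0.297 CPM, and -0.46 without aged 1.

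Pax6, a paired-box factor of several hormone-producing lineages, had the most accessible promoter of the group. Its main peak (chr2:105675186-105675753, 568 bp, 360 bp downstream of the annotated TSS) stood at 14.9, 16.2 and 12.6 CPM in aged and 12.1, 11.5 and 11.9 in young. All aged libraries were above all young ones, aged 4 by little, and the promoter's log2 fold change was 0.32 (SE 0.12, 95% interval 0.068 to 0.58). It was 0.19 when the promoter limit was widened to take in the next peak downstream. It did not pass the threshold (edgeR adjusted p = 0.329, and 0.0984 with the replicate block). Peaks 1308 bp downstream, at a transcription termination site, and 5982 bp downstream, at another Pax6 promoter by annotation, had values of the opposite sign, -0.45 (SE 0.24) and -0.66 (SE 0.34), and the intron 8 peaks at 12531 and 13473 bp had 0.13 and 0.11. At the peak 5982 bp downstream (chr2:105681031-105681152) the aged libraries held 0.678, 1.30 and 0.625 CPM and the young ones 1.19, 1.58 and 1.59, so that aged 2 overlapped the young values. Its log2 fold change was -1.12 without aged 2, and -0.47 without aged 4. Summed over its 5 peaks Pax6 had 0.11 (SE 0.11). Pax4, a related paired-box factor, had a single peak of 75 bp, 4935 bp upstream of the TSS (chr6:28451273-28451347), with 3 to 11 counts per library. It was too weak to be tested, at 0.291 ± 0.148 CPM in aged and 0.351 ± 0.125 in young.

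Nkx2-2, a homeodomain factor, had a broad promoter peak of 1016 bp (chr2:147194720-147195735) and a small one of 98 bp in exon 1 of 2. Summed, the aged libraries stood at 6.04, 11.1 and 7.61 CPM and the young libraries at 7.87, 9.11 and 9.87. Aged 2 was the highest and aged 1 the lowest of all 6, and the log2 fold change was -0.05 (SE 0.19, 95% interval -0.45 to 0.35). The peak 11095 bp upstream, in an intron of the antisense gene Nkx2-2os (chr2:147205140-147205535), held 0.986, 2.13 and 0.738 CPM in aged libraries against 1.65, 1.63 and 2.229 in young ones. Its log2 fold change was -0.39 (SE 0.33), aged 2 lying within the young range, and it was -1.02 without aged 2, -0.23 without aged 1 and -0.11 without aged 4, and one 5839 bp upstream was too weak to be tested. Accessibility carries no strand, so a peak here cannot be credited to Nkx2-2 over Nkx2-2os.

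Rfx6, a winged-helix factor that acts in early and mature enteroendocrine cells, had a promoter peak of 630 bp (chr10:51677533-51678162) at 4.13, 5.26 and 6.30 CPM in aged and 5.86, 4.61 and 6.37 in young. The log2 fold change was -0.04 (SE 0.20, 95% interval -0.46 to 0.38). Of its other 4 peaks, those 8222 bp upstream and 10028 and 11767 bp downstream had 0.16, -0.17 and 0.0024. The middle one (chr10:51687629-51687939, intron 1 of 15) held 1.17, 1.25 and 1.25 CPM in aged libraries against 1.098, 1.73 and 1.27 in young ones. The one 31059 bp downstream, in intron 7, was not tested. For the 6 promoters that were tested and not called the intervals leave room for changes that this design could not resolve.

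**Figure D2:**
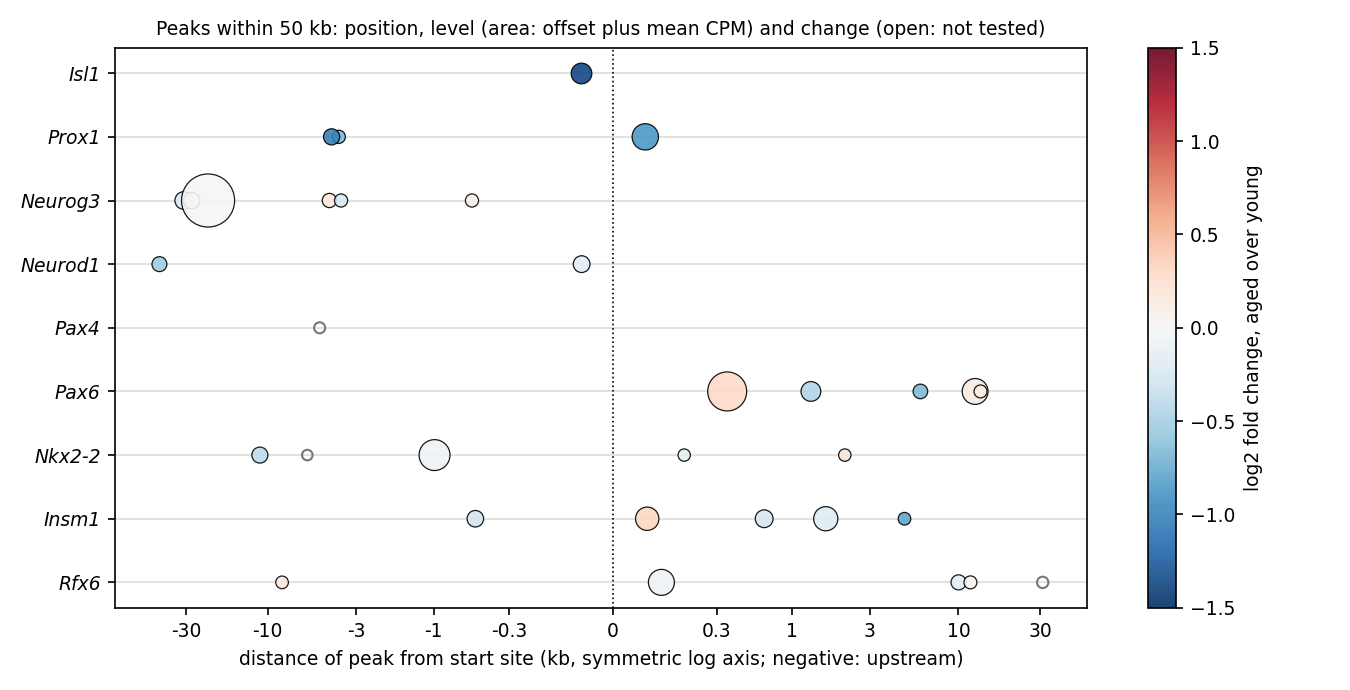
The 33 peaks by gene (rows) and signed distance from the TSS in kb (x axis, symmetric log scale, negative is upstream); circle area is a fixed offset plus the mean CPM of the 6 libraries, colour is the log2 fold change of aged over young, and open circles were not tested. The darkest blue circle is the single Isl1 peak (-1.36), and the 3 Prox1 peaks are all blue (-1.01 to -0.67).

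Seen as single peaks, 30 of the 33 had enough counts to be tested and 2 were called, the Isl1 and Prox1 promoter peaks, both lower. Over all tested peaks 1.6% were called, 0.528% lower and 1.07% higher. With the replicate block the peak 4194 bp upstream of Prox1 was called too, making 3, beside 3.09% of all peaks called and 1.1% called lower. The 30 log2 fold changes ran from -1.36 to 0.33 with a median of -0.16, 19 below 0 and 11 above. All tested peaks had a median of -0.0038 with 50.7% below 0. The ages did not overlap at 5 peaks where aged was lower and at 2 where it was higher, the Insm1 and Pax6 promoter peaks. That is 23.3% of the 30, beside 13.9% of all tested peaks (6.54% with aged lower and 7.32% with aged higher). The 5 were the Isl1 peak, the 3 Prox1 peaks and the Pax6 peak at 1308 bp. Peaks of a gene are neighbours and not independent replicates. Summed over all peaks within 50000 bp, Isl1 (-1.35, SE 0.23, edgeR adjusted p = 0.00116) and Prox1 (-0.88, SE 0.18, edgeR adjusted p = 0.00645) were the 2 called of 8 tested genes. The Isl1 sum is its promoter peak alone and the Prox1 sum is mostly its promoter peak, so these calls are not separate evidence. Of all 27234 genes 1.84% were called, 0.775% lower and 1.06% higher, and with the block, which called the same 2, 4.63% were called and 1.88% were lower. The sums did not overlap for Isl1, Prox1 and Neurod1, all lower in aged, beside 6.85% of all genes with aged lower, 6.45% with aged higher and 13.3% in all. For Neurod1 the summed value was -0.29 (SE 0.23, edgeR adjusted p = 0.870).

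**Figure D3:**
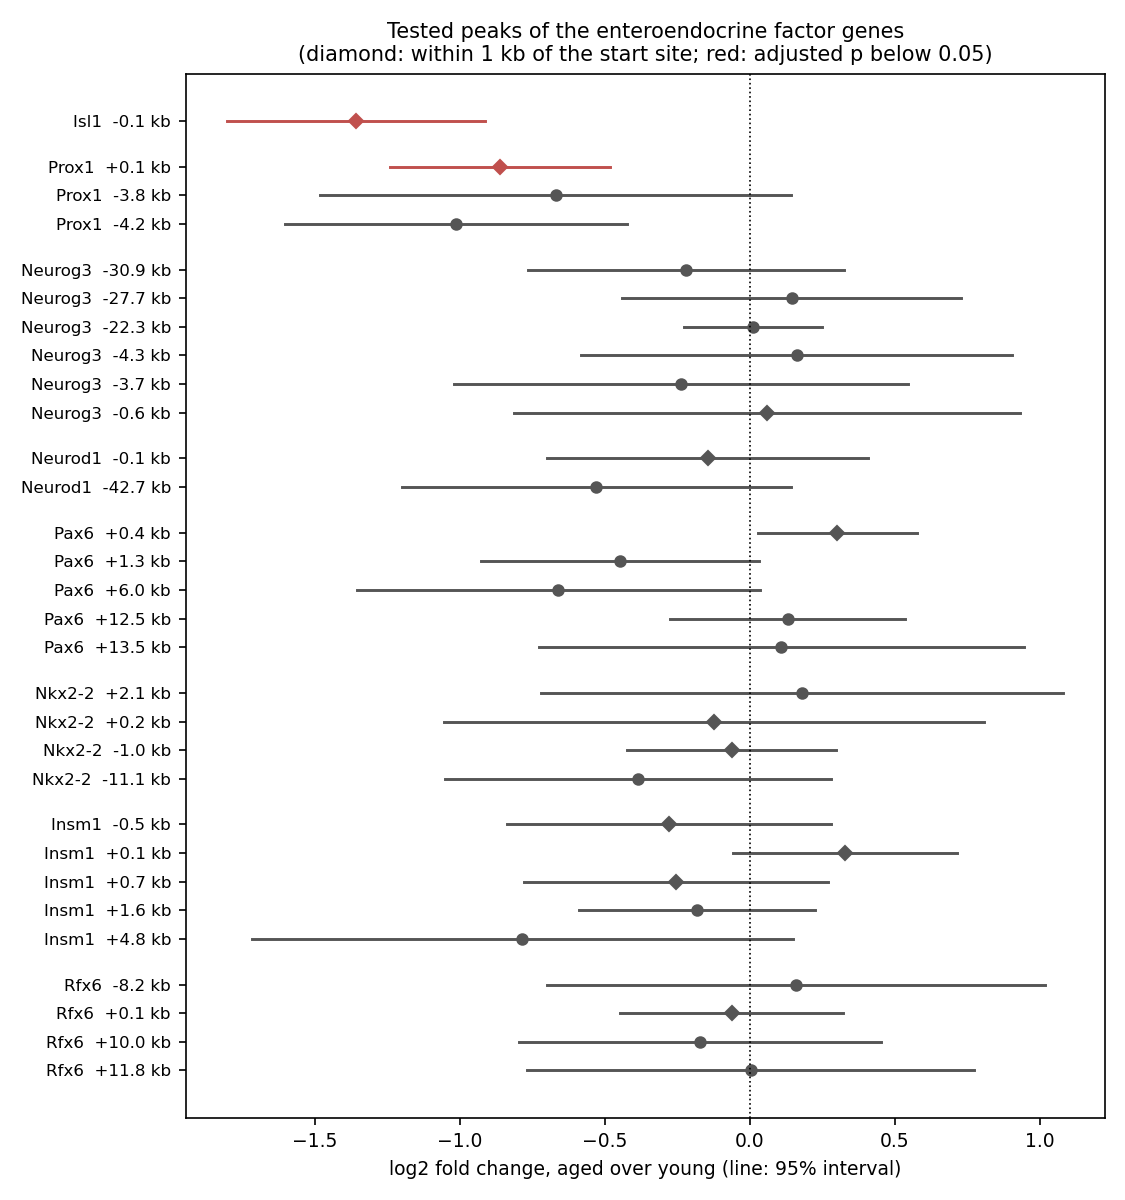
Log2 fold change of aged over young (x axis) for the 30 tested peaks, labelled by gene and distance from the TSS in kb; lines are 95% intervals, diamonds mark peaks within 1000 bp of the TSS, and red marks an adjusted p below 0.05. The Isl1 (-1.36) and Prox1 (-0.86) promoter peaks are the red ones, and 2 further intervals lie wholly on one side of 0, those of the Prox1 peak at -4194 bp and the Pax6 peak at 360 bp.

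Most of the peaks were weak. Their mean level ranged from 0.227 to 25.2 CPM with a median of 1.56, and 21 of 33 lay below the median of all peaks, 2.06 CPM. By annotation class, 11 were promoter (some of them other promoters than the named start), 12 intronic, 6 intergenic, 3 exonic and 1 at a transcription termination site. Promoters made up 13.8% of all consensus peaks, a set not limited to 50000 bp from a TSS, so the 2 sets are not like for like.

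Per kb of peak, the order of promoter levels differed between the ages. In young it was Pax6 with 20.9 ± 0.531 CPM per kb, Prox1 with 19.15 ± 1.47, Isl1 with 14.4 ± 1.0498, then Rfx6 with 8.91, Insm1 with 8.42, Nkx2-2 with 8.04, Neurog3 with 6.97 and Neurod1 with 5.14. The libraries of Pax6, Prox1, Isl1 and Rfx6 did not overlap from one to the next, and all later neighbours did. In aged, Pax6 led with 25.7 ± 3.22, and the libraries of all later neighbours in the order overlapped: Prox1 with 10.3 ± 2.64, Insm1 with 8.60, Rfx6 with 8.31, Nkx2-2 with 7.41, Neurog3 with 6.54, Isl1 with 5.65 ± 0.785 and Neurod1 with 4.71. Isl1 thus stood at rank 3 of 8 in young and at rank 7 in aged. Over all 6 libraries the 8 promoters lay below the median of tested promoters, 25.1 CPM per kb, from percentile 6.996 for Neurod1 to 47.2 for Pax6.

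The aged libraries differed among themselves over these genes. Aged 2 was the highest aged library at 19 of the 30 tested peaks (63.3%), beside 31.8% of all tested peaks. Aged 1 was the lowest at 18 (60%), beside 36.2% of all. Among the young libraries, young 4 was the highest at 15 (50%), beside 39.2%. Aged 2 is also the deepest and aged 1 the shallowest aged library (23935291 and 16900796 counts), and the part of depth in this pattern was not tested. At the Isl1 and Prox1 promoters aged 2 was the nearest to the young values.

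**Figure D4:**
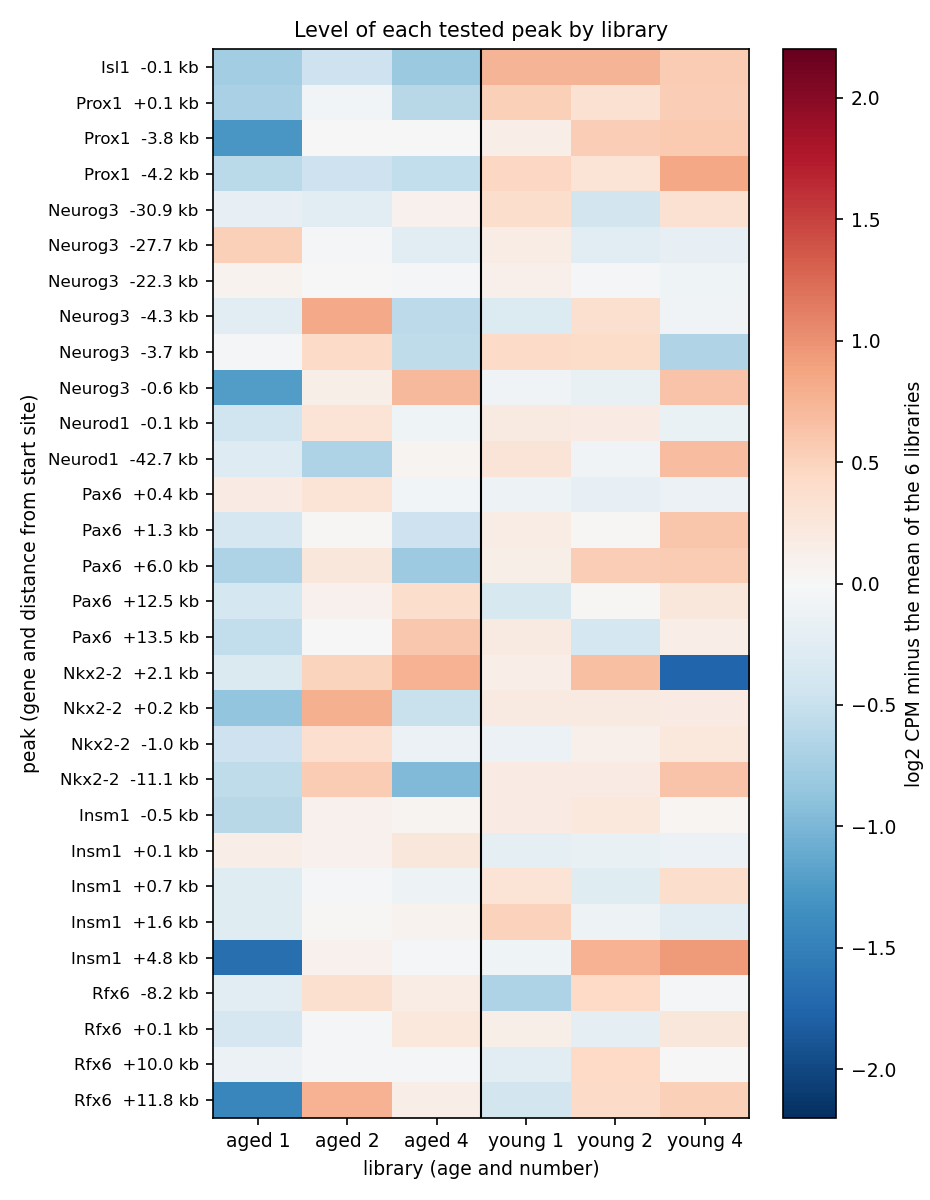
Level of the 30 tested peaks (rows, gene and distance from the TSS in kb) in the 6 libraries (columns), as log2 CPM minus the mean of the 6 libraries; red is above and blue below that mean, and the line divides the ages. The Isl1 row and the 3 Prox1 rows are lower in aged, and aged 1 is the lowest aged library in 18 of the 30 rows.

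No promoter of the gene lists that follow was called without the replicate block. Over all tested promoters 1.74% were called, and 3.34% with the block. At such shares, 0 calls in lists this short say little about the lineage. Of 32 further regulators of enteroendocrine fate, such as Atoh1, Fev and Lmx1a, 26 had a tested promoter, and the edgeR fit called 0 (4 at an unadjusted p below 0.05, and with the replicate block Lmx1b alone was called). Their median log2 fold change was 0.037, beside -0.0017 for all promoters. The smallest p belonged to Lmx1b, a LIM-homeodomain gene, at -0.62 (SE 0.23, edgeR adjusted p = 0.287, and 0.0373 with the block). Egr3, an immediate early zinc-finger gene, came next with 0.43 (SE 0.16). Of their 192 tested peaks within 50000 bp 1 was called, beside 1.6% of all tested peaks, and 4 with the replicate block (2 higher and 2 lower), beside 3.09%. The 1 called peak lay 2413 bp upstream of Foxa1, a forkhead factor of secretory cells (chr12:57548485-57548584). Its aged libraries held 0.801, 0.669 and 0.511 CPM, all below the young ones with 2.11, 2.92 and 2.55, and it had -1.92 on the log2 scale (SE 0.31, edgeR adjusted p = 0.000152). It and the single peaks of the following lists were named after their values were seen.

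Of 28 gut hormone and secretory granule genes, the products of these cells, 14 had a tested promoter, and the edgeR fit called 0 (2 at an unadjusted p below 0.05, and with the replicate block Scg3 alone was called). Their median was -0.017. Scg3 and Chgb, granule proteins, had the smallest p, with -0.90 (SE 0.33, edgeR adjusted p = 0.283, and 0.0116 with the block) and -0.38 (SE 0.18). Of 76 tested peaks 2 were called, both higher, beside 1.6% of all tested peaks, and with the block 3 higher and 1 lower, beside 3.09%. The 2 rose near the genes of the amylin hormone Iapp (8630 bp upstream of its TSS, chr6:142289463-142290171, log2 fold change 0.62, SE 0.15, edgeR adjusted p = 0.0168) and of carboxypeptidase E, Cpe (12935 bp upstream, chr8:64705812-64706138, 1.29, SE 0.30, edgeR adjusted p = 0.0140). Summed over 50000 bp, Iapp was the 1 gene called of 25, with 0.62 (SE 0.16, edgeR adjusted p = 0.0423), beside 1.84% of all genes. Most of the Iapp sum is the peak just named, at 15.1 of 16.0 CPM in aged and 9.87 of 10.6 in young. This call is thus mostly that of the same peak, which is annotated as intronic. With the replicate block Cpe (0.46 without the block, block adjusted p = 0.0392 by edgeR) and Scg3 (-0.91, block adjusted p = 0.0135 by edgeR) were called as well, beside 4.63% of all genes.

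Of 16 regulators of the goblet, Paneth and tuft lineages, of which 2 (Gfi1 and Sox4) are also in the first list, 15 had a tested promoter. The edgeR fit called 0, with 0 at an unadjusted p below 0.05 and 0 with the replicate block. Their median was -0.020. Among their 130 tested peaks 2 were called, beside 1.6% of all tested peaks, and with the block 3 higher and 1 lower, beside 3.09%. Of the 2, 1 near Nr5a2 fell (3908 bp upstream, -1.24, SE 0.23) and 1 near Creb3l1 rose (29325 bp downstream, 1.32, SE 0.28). These counts describe the lists; whether the 9 factors differ from them was not tested.

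Markers of the cell types in which Isl1 or Prox1 also act were set beside these falls. Over peaks within 50000 bp, the 4 of 6 lymphatic endothelial markers with peaks summed to 56.2 to 60.3 CPM in aged and 56.8 to 63.6 in young, and 0 of the 4 were called. All 4 had values below 0, with a median of -0.29, and Ccl21a had -0.66 (SE 0.40) and Flt4 -0.33 (SE 0.21). Of the 9 neuronal and glial markers 5 had a tested promoter, summed to 38.9 to 41.7 CPM in aged and 35.8 to 40.0 in young, and 0 were called. Elavl4 and Sox10 were among those with no promoter peak. Over 50000 bp 7 of the neuronal and glial markers were tested, 1 was below 0, the median was 0.16 and 0 were called. They summed to 122.8 to 134.4 CPM in aged and 115.6 to 124.5 in young. Of 27 tested peaks of the neuronal and glial markers 1 was called, and 1 of 26 of other endothelium, both higher. Of all tested peaks 1.6% were called. The 2 peaks lay 4322 bp downstream of the S100b TSS (1.03, SE 0.15, edgeR adjusted p = 5.08e-05) and 33786 bp upstream of that of the endothelial gene Pecam1 (2.12, SE 0.44, edgeR adjusted p = 0.00445). With the replicate block 1 neuronal or glial peak was called higher. The block called 1 endothelial peak higher and 1 lower, beside 3.09% of all peaks. Summed over 50000 bp the 4 tested markers of other endothelium had a median of -0.099 and 0 were called, with Pecam1 at 0.081, Tek at 0.22, Kdr at -0.28 and Cdh5 at -0.36 (edgeR adjusted p = 0.671, and 0.0357 with the replicate block). The part of these cells in the falls of Isl1 and Prox1 was not tested.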

How the data were processed

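The deposited count table holds raw counts per consensus peak for 6 libraries, as whole numbers without normalisation; positions, classes, nearest genes and TSS distances come from the deposited annotation. The submitters' processing notes name BWA 0.7.17-r1188, MACS2 2.2.7.1 and featureCounts 2.0.1 with GRCm38, with peak caller settings and any Tn5 shift not given in the sources used here. Columns were tied to libraries by the labels' descriptions.

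Counts were filtered with filterByExpr, scaled by TMM and tested in edgeR 4.0.16 (quasi-likelihood, robust) in R 4.3.3 with age as the only term, over all peaks, over promoter sums (1000 bp) and over sums within 50000 bp. Calls were made at an adjusted p (Benjamini-Hochberg) below 0.05. SEs are those implied by the test statistic, and 95% intervals use its degrees of freedom. CPM use the library sizes of the peak table throughout. DESeq2 1.42.0, limma 3.58.1, other scalings, filters and distances, a replicate block and leaving out each library were alternatives. The test was tested on simulated data.

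Same-numbered libraries of the ages deviated together (r = 0.265, 0.199 and 0.148 for numbers 1, 2 and 4; other pairs -0.205 to 0.028), all above the criterion of 0.1, though no label explains the numbers. The naming rule covered all 9 genes, every called peak, each gene's strongest promoter peak and its distal peak of smallest p, and of other lists the called genes or the 2 of smallest p. The genes and lists were chosen with earlier results of these data known. Sequences and the start sites of their windows are RefSeq's for GRCm38.p6, whereas peak distances are from the TSS of the deposited annotation.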

Additional observations from a re-analysis of the deposited data

How the results depend on the processing

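The number of the 9 genes' peaks called was 2 and lay between 1 and 2 when single libraries were left out; so did the number of promoters called. The number called over 50000 bp was 2 without any 1 library and 0 of 7 tested from distal peaks only. That sum leaves out peaks within 1000 bp of the gene's own TSS. It keeps farther peaks annotated as promoter, such as that of 2010107G23Rik counted for Neurog3. Isl1 has no distal peak and could not be called there. With the replicate block 3 peaks, 2 promoters and 2 sums were called, the added peak being the one 4194 bp upstream of Prox1 (-1.02, adjusted p = 0.0157 by edgeR); the block changed no other call of these genes. Isl1 kept its call and direction in all 15 alternatives for its promoter (-1.48 to -1.26) and Prox1 its direction (-1.10 to -0.69). Small uncalled values changed sign. Neurog3 at the promoter had -0.14 with the block, -0.074 by limma-voom and -0.33 to 0.46 without single libraries. Insm1 had -0.017 with a wider promoter limit, 0.35 with a narrower one and -0.0049 to 0.15 without single libraries. Without single libraries Neurod1 ranged from -0.35 to 0.063, Nkx2-2 from -0.35 to 0.15, Rfx6 from -0.20 to 0.13, the Neurog3 peak at -30853 bp from -0.48 to 0.018 and the Rfx6 peak at 10028 bp from -0.36 to 0.088. The causes were not tested. Over all features the block called 3998 peaks against 2077, 464 promoters against 242 and 1262 sums against 500, DESeq2 called 1267 peaks, leaving out young 2 gave 1216 peaks, 161 promoters and 272 sums, and leaving out aged 4 gave 315 sums. The shallow young 4 held 26 counts at the Isl1 peak and 7 at the Neurog3 promoter.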
